A study of Mus musculus with 12 samples.

Results

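The miR-200 family consists of mmu-miR-200a-3p, mmu-miR-200b-3p, mmu-miR-200c-3p, mmu-miR-141-3p and mmu-miR-429-3p, written without the species prefix from here on, which are 5 of the 1881 mouse miRNAs with probes on the arrays. The members were found by an exact match of their names in the scanner files, and each was present. The family was chosen by the lower signal of miR-200c-3p after injury on these same arrays, so its values against sham are given as a description. Exosomes are small vesicles that cells release with RNA inside, and the study asked how the miRNAs of microglial exosomes change over time after repetitive mild traumatic brain injury (rmTBI). Single-color Agilent miRNA arrays were used for 4 groups of 3 arrays each.

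All mice were adult male C57BL/6 mice. The sham group went through every step of the procedure except the impact. The 3 DPI, 14 DPI and 42 DPI groups (DPI, days post-injury) received 4 closed-head impacts with 48 h between them and were sampled 3, 14 and 42 days later. The time at which the sham mice were sampled is not given in the sources used here. Brain tissue was digested with papain and exosomes were captured with an antibody to CD11b, a surface protein of microglia that other myeloid cells carry too. The labels name the injured hemisphere as the tissue and the methods name the cortex and hippocampus of both sides. The methods speak of independent experiments for the study in general, but whether an array held the exosomes of 1 mouse or of a pool is not given in the sources used here, so the p-values measure the spread between these samples, which may be technical.

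The miR-200 family is best known from epithelia, where its members repress the transcription factors Zeb1 and Zeb2 and so keep E-cadherin and the epithelial state. Loss of the family is a textbook step of epithelial-mesenchymal transition. In the nervous system the family is known mainly from olfactory and other sensory epithelia, and it is not a usual marker of microglia. A miRNA pairs with its targets mainly through its seed, the bases from position 2 to position 8, and the family falls into 2 seed groups that differ at 1 base.

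The mature sequences show which members share a seed and how alike the rest of the molecule is, and this bears on how well array probes can keep them apart. They are from RefSeq, written 5′ to 3′, with the seed in capitals.
miR-200b-3p: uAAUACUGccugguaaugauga
miR-200c-3p: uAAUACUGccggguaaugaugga
miR-429-3p: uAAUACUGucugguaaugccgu
miR-200a-3p: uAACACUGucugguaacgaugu
miR-141-3p: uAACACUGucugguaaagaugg
The first 3 share the seed AAUACUG and the last 2 share AACACUG. Positions are counted from 1 at the 5′ end. Between miR-200a-3p and miR-200b-3p, C4U is the only difference inside the seed. miR-200a-3p and miR-141-3p had 20 of 22 bases in common and differed by C17A and U22G. miR-200b-3p and miR-200c-3p also had 20 of 22 compared bases in common, with U11G and A22G, and miR-200c-3p carries 1 further base at its 3′ end. miR-200c-3p and its cluster partner miR-141-3p had 18 of 22 bases in common. No other mouse miRNA among the 1679 mature sequences in the reference had either seed. How far a probe of 1 member takes up signal from a near-identical member was not tested.

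The genes lie in 2 clusters, both on the minus strand, with positions from RefSeq on GRCm38.p6. On chromosome 4, miR-429-3p lies at chr4:156053916-156053937, miR-200a-3p at chr4:156054911-156054932 and miR-200b-3p at chr4:156055685-156055706. These 3 hairpins span 1846 bases and overlap the lncRNA gene Gm13648. On chromosome 6, miR-141-3p lies at chr6:124717917-124717938 and miR-200c-3p at chr6:124718324-124718346. These 2 hairpins lie 336 bases apart, overlap no other annotated gene, and sit between Phb2 and Ptpn6.

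The arrays differed in overall brightness in the same order as the groups. Before scaling, the 75th percentile of intensity over the 230 miRNAs detected on all 12 arrays ranged from 217 to 348 in sham, from 401 to 619 at 3 DPI, from 588 to 1173 at 14 DPI and from 1385 to 2936 at 42 DPI. Each array was divided by this percentile, and the levels below are the log2 of that scaled signal unless raw intensity is named. One slide held the 3 sham arrays and replicate 1 of 3 DPI, and the other held the remaining 8 arrays, so a comparison of sham with 14 or 42 DPI is also a comparison of slides. Of the marker miRNAs of myeloid cells, miR-142a-3p was detected on 0 of 3 sham, 0 of 3 3 DPI, 2 of 3 14 DPI and 3 of 3 42 DPI arrays, miR-223-3p on 1, 3, 3 and 3, and miR-21a-5p, which many cell types carry, on all 12.

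The 5 members were measured in sham and at 3 DPI at similar levels, and all were dimmer at 14 and 42 DPI relative to the rest of the array. The log2 scaled signal of miR-200c-3p was -1.97, -1.32 and -2.77 in sham, and -1.49, -1.69 and -3.04 at 3 DPI. It was -4.22 and -4.02 on replicates 2 and 3 of 14 DPI, was not detected on replicate 1 (-6.54), and was -4.60, -4.62 and -4.99 at 42 DPI. All sham and 3 DPI arrays lay above all 14 and 42 DPI arrays.

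For miR-141-3p, the partner of miR-200c-3p on chromosome 6, the log2 scaled signal was -3.43, -3.19 and -4.37 in sham and -3.43, -3.32 and -4.55 at 3 DPI. It was not detected on replicate 1 of 14 DPI (-7.06), was -5.26 and -4.45 on replicates 2 and 3, and was -5.46, -5.59 and -5.47 at 42 DPI. Replicate 3 of 14 DPI reached above replicate 3 of 3 DPI, so these groups overlapped. The 42 DPI values and that of replicate 2 at 14 DPI lie below the floor of -5.06 that was set for every array in the fit, and a fitted difference that uses them understates the measured one.

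The members on chromosome 4 followed the same course. miR-200a-3p had log2 scaled signals of -1.78, -1.37 and -2.57 in sham, of -1.57, -1.13 and -2.50 on the 3 DPI arrays, of -4.57, -3.08 and -2.60 on the 14 DPI arrays, and of -3.53, -3.49 and -3.67 on those of 42 DPI. miR-200b-3p, which shares the seed of miR-200c-3p, had -1.28, -0.87 and -2.22 in sham, then -0.94, -0.92 and -1.97 (3 DPI), -4.38, -2.90 and -2.64 (14 DPI), and -3.31, -3.48 and -3.57 (42 DPI). In both, sham and 3 DPI overlapped, 14 and 42 DPI overlapped, and the pairs did not overlap each other. miR-429-3p had -0.52, -0.10 and -1.36 in sham, then -0.30, -0.35 and -1.53 (3 DPI), -3.56, -2.45 and -1.98 (14 DPI), and -2.78, -2.92 and -2.95 (42 DPI). Its arrays separated in the same way.

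Single arrays stood apart alike in all 5 members. Replicate 3 was the lowest array of sham and of 3 DPI, and replicate 1 was the lowest of 14 DPI. The SD over the arrays at 42 DPI was 0.09 for miR-200a-3p, 0.13 for miR-200b-3p, 0.22 for miR-200c-3p and 0.09 for miR-429-3p, against 0.56 to 1.02 for these 4 members at 14 DPI, with miR-200c-3p of replicate 1 set to the floor.

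**Figure D1:**
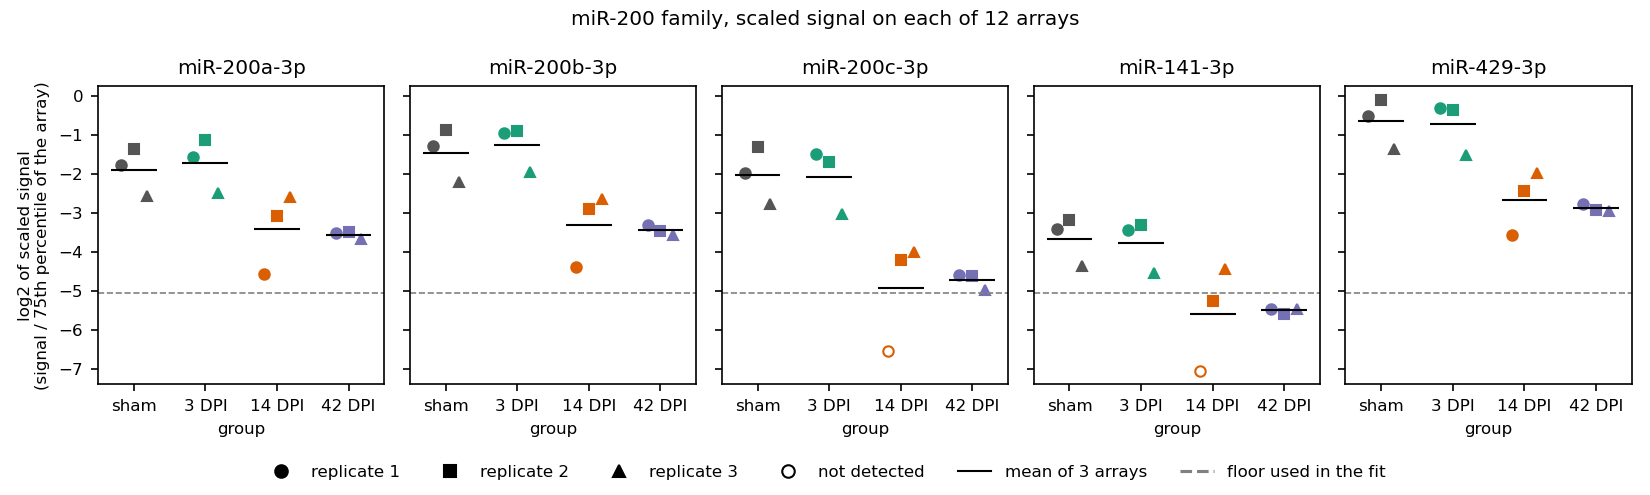
Log2 scaled signal of each miR-200 member (vertical axis) in the 4 groups (horizontal axis), 1 point per array (open where not detected) with the mean of the 3 arrays as a line and the floor of the fit dashed. All members are near the same level in sham and at 3 DPI and lower at 14 and 42 DPI, and replicate 1 of 14 DPI is the dimmest array for every member.

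Against sham, the contrast by which the family was chosen, the fitted log2 differences are a description. At 3 DPI they lay between -0.11 and 0.18 (SE 0.39 to 0.54, n = 3 against 3). At 14 DPI they were -2.41 (SE 0.50) for miR-200c-3p, -2.01 (SE 0.49) for miR-429-3p, -1.85 (SE 0.52) for miR-200b-3p, -1.51 (SE 0.54) for miR-200a-3p and -1.20 (SE 0.39) for miR-141-3p. At 42 DPI they were -2.72, -2.22, -1.99, -1.66 and -1.40 in the same order. In linear terms the scaled signal of miR-200c-3p at 42 DPI was 6.58-fold lower than in sham (95% CI 3.02 to 14.3). Its difference was the lowest of all 486 tested miRNAs at 14 DPI and ranked 2 from the lowest at 42 DPI.

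At an adjusted p under 0.05 in limma, 0 members were called lower at 3 DPI, 1 at 14 DPI (miR-200c-3p) and 5 at 42 DPI. Over all 486 tested miRNAs the share called lower at these times was 0%, 2.06% and 20.6%, and 13.6% were called higher at 42 DPI. At 3 DPI, 11 of 486 miRNAs and none of the 5 members had an unadjusted p under 0.05. All 5 members lay below sham without overlap at 14 DPI, where 9.26% of the tested miRNAs did, and at 42 DPI, where 35.6% did. Nothing is read from these counts, since the same contrasts chose the family. With slide as a block, where only replicate 1 of 3 DPI links the slides, the difference of miR-200c-3p was -1.54 (SE 0.87) at 14 DPI and -1.84 (SE 0.87) at 42 DPI, and 0 of 5 members were called in either contrast. With the slide block, none of all 486 miRNAs was called in either contrast. A replicate block left 0 of 5 called at 14 DPI and 4 of 5 at 42 DPI, beside 4 and 141 of all 486 miRNAs.

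The time points after injury were then compared with each other. These contrasts did not enter the choice, but the 14 and 42 DPI arrays are those on which miR-200c-3p was seen to be low, so its call is not independent of that choice. Between 3 and 42 DPI all 5 members fell. miR-200c-3p fell by 2.66 on the log2 scale (SE 0.50, adjusted p = 0.0172 in limma), which is 6.33-fold (95% CI 2.90 to 13.8). miR-200b-3p fell by 2.18 (adjusted p = 0.0228) and miR-429-3p by 2.15 (adjusted p = 0.0204), miR-200a-3p fell by 1.83 (adjusted p = 0.0341), and miR-141-3p fell by 1.29 (adjusted p = 0.0346), the last with all its 42 DPI arrays set to the floor.

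The 5 calls of 5 stand beside 24.1% of all tested miRNAs called lower and 14.2% called higher in the same contrast. All 5 members separated without overlap, as 37.7% of the tested miRNAs did. The median over the members was -2.15 and that over all 486 miRNAs was -0.09. The rank from the lowest of 486 was 6 for miR-200c-3p, 19 for miR-200b-3p, 21 for miR-429-3p, 48 for miR-200a-3p and 110 for miR-141-3p.

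The calls between 3 and 42 DPI rested on all 3 arrays of 42 DPI. Without replicate 1 or without replicate 3 of 42 DPI, limma called 0 members and 0 of 486 miRNAs (adjusted p of miR-200c-3p 0.0680 and 0.0611), and without replicate 2, 1 member (56 miRNAs) was called, against 5 (186 miRNAs) with all arrays. Without replicate 1, 2 or 3 of 3 DPI, 2, 3 and 4 members were called. Over every choice of 1 array left out, between 0 and 255 of all 486 miRNAs were called. Within the slide that held 2 arrays of 3 DPI and 3 of 42 DPI, the differences ranged from -2.37 for miR-200c-3p to -1.13 for miR-141-3p and limma called no miRNA (adjusted p of the members 0.0552 to 0.111). With the 75th percentile taken over all miRNAs, the differences ran from -1.81 to -0.92 and 1 of 5 members was called, miR-200c-3p (adjusted p = 0.0382 in limma). With quantile normalization they ran from -2.01 to -0.93, and miR-200c-3p was again the 1 member called (adjusted p = 0.0350). With no filter on detection, 0 members and 0 miRNAs were called. With normexp background correction the differences ran from -2.08 to -1.69 and 5 of 5 members were called, as were 414 of all 486 miRNAs in either direction. The median of all 486 miRNAs then lay at -1.32. Relative to that median the members lay only from -0.75 (miR-200c-3p) to -0.37 (miR-200a-3p). The direction was the same in each of these fits.

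Between 3 and 14 DPI the differences were -2.36 for miR-200c-3p (SE 0.50, adjusted p = 0.0776), -2.03 for miR-200b-3p (adjusted p = 0.103), -1.94 for miR-429-3p (adjusted p = 0.103), -1.68 for miR-200a-3p (adjusted p = 0.156) and -1.09 for miR-141-3p (adjusted p = 0.194). limma called 0 of 5 members, as it called 0% of all miRNAs lower, while all 5 had an unadjusted p under 0.05, as did 98 of all 486 miRNAs. The arrays did not overlap for 4 of 5 members, miR-141-3p being the exception, against 7.2% of the tested miRNAs. Without replicate 1 of 14 DPI, the dimmest array, 3 members were called, as were 131 of all 486 miRNAs against 3 with all arrays, and miR-200c-3p stood at -2.04. Without replicate 3 of 3 DPI, miR-200c-3p alone of the members was called, at -2.84.

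Between 14 and 42 DPI the members differed by -0.14 to -0.30, with adjusted p between 0.700 and 0.884 in limma. None was called, again beside 0% of all miRNAs called lower, and none of the 5 had an unadjusted p under 0.05, as against 54 of 486 miRNAs. The 95% interval for miR-200c-3p ran from -1.43 to 0.82, so a difference of more than 2-fold in the downward direction is still inside it.

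**Figure D2:**
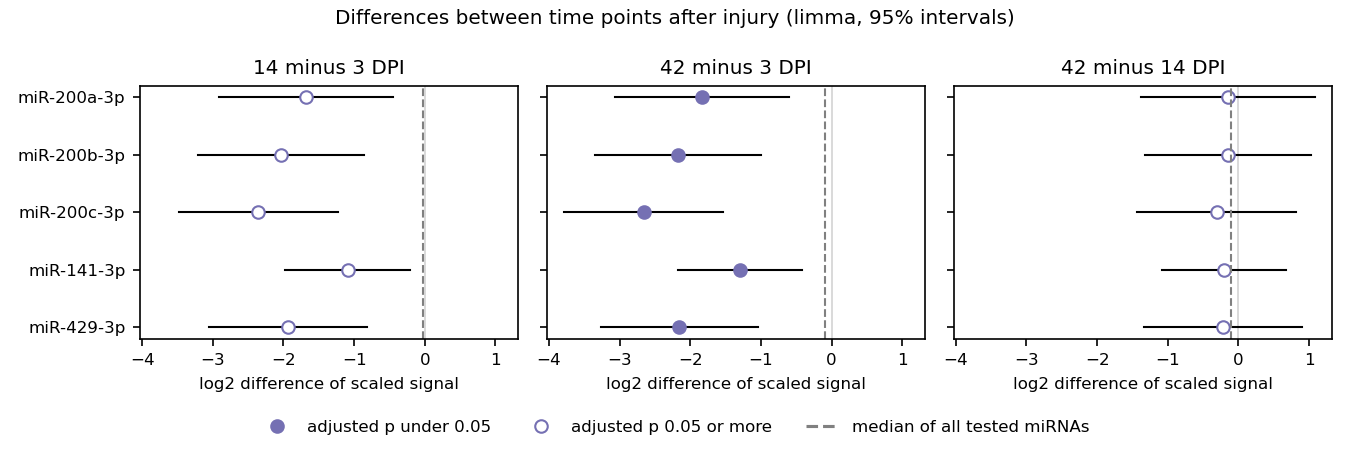
Fitted log2 difference between time points after injury for each member (points) with its unadjusted 95% confidence interval from limma (bars, 3 arrays a group), filled where called after adjustment, and the median of all tested miRNAs dashed. The intervals for 42 minus 3 DPI lie below 0 for all 5 members, from -1.29 for miR-141-3p to -2.66 for miR-200c-3p, and those for 42 minus 14 DPI span 0.

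The fall is a fall relative to the other miRNAs of the array, since raw intensity did not fall alike. The summed probe intensity of miR-200c-3p was 72.5, 87.2 and 50.9 in sham and 143, 192 and 54.6 at 3 DPI. It was 6.30, 62.8 and 69.0 at 14 DPI and 121, 56.3 and 58.4 at 42 DPI. Without scaling, the 42 DPI arrays thus lay within the range of the other groups. The intensity of miR-141-3p was 26.5, 23.8 and 16.8 in sham, 37.2, 61.9 and 19.2 at 3 DPI, 4.41, 30.6 and 51.0 at 14 DPI, and 66.7, 28.8 and 41.8 at 42 DPI.

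The mean intensity at 42 DPI over that in sham was 1.12 for miR-200c-3p, 1.58 for miR-429-3p, 1.86 for miR-200b-3p, 2.05 for miR-141-3p and 2.32 for miR-200a-3p, while the ratio of the array's 75th percentile was 7.27. Without scaling, the median log2 difference of all 486 miRNAs between 42 DPI and sham shifted to 1.90, and the members lay between 0.10 (miR-200c-3p) and 1.16 (miR-200a-3p), above sham in place of below. Relative to that median they lay from -1.80 to -0.74. With normexp background correction the median between 42 DPI and sham was -1.67, and the members lay from -0.63 (miR-200c-3p) to -0.11 (miR-200a-3p) relative to it. Between 3 and 42 DPI without scaling the median was 1.41 and miR-200c-3p lay at -0.64 (adjusted p = 0.333), or -2.05 relative to the median, and 0 members were called. Whether the members were lost from the exosomes or other miRNAs were gained cannot be told apart with these arrays. In such bulk preparations, fewer vesicles that carry a miRNA and less of it per vesicle cannot be told apart either.

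**Figure D3:**
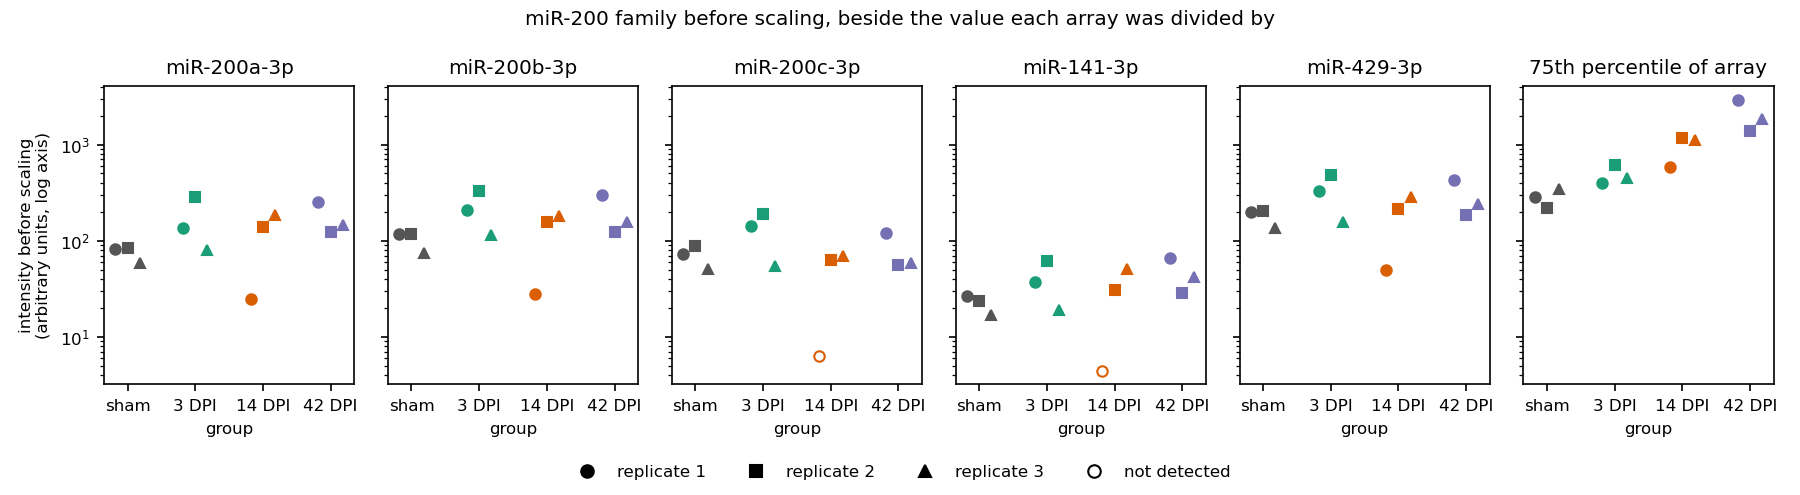
Summed probe intensity before scaling, on a log axis, of each member and of the array's 75th percentile in the 4 groups, 1 point per array. The 75th percentile climbs from 217 to 348 in sham to 1385 to 2936 at 42 DPI, whereas miR-200c-3p stays between 50.9 and 192 on all arrays but replicate 1 of 14 DPI.

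miR-200c-3p was compared with the other members within each array, which does not depend on scaling. The log2 difference of miR-200c-3p minus miR-141-3p was 1.45, 1.87 and 1.60 in sham and 1.94, 1.63 and 1.51 at 3 DPI. It was 0.51, 1.04 and 0.43 at 14 DPI and 0.86, 0.97 and 0.48 at 42 DPI. Neither was detected on replicate 1 of 14 DPI, so the 0.51 of that array rests on signals not well above background. The mean difference between the cluster partners changed by -1.03 on the log2 scale (SE 0.23) from 3 to 14 DPI, or -0.96 without that array, and by -0.92 (SE 0.19) from 3 to 42 DPI.

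The difference to each paralog on chromosome 4 was also lower at 14 and 42 DPI. Between 3 and 42 DPI its difference to miR-200a-3p changed by -0.83, that to miR-200b-3p by -0.48 and that to miR-429-3p by -0.51 on the log2 scale. Between 3 and 14 DPI the changes were -1.17, -0.82 and -0.91. They were -0.94, -0.55 and -0.56 without replicate 1 of 14 DPI, where miR-200c-3p was not detected, and -0.68, -0.32 and -0.42 with values below the floor of the fit set to it. In all 8 of these comparisons, those with miR-141-3p included, the groups did not overlap, and the two-sided exact permutation p was 0.1, the smallest that 3 arrays against 3 allow, or 0.15 after adjustment over the 12 tests made. miR-200c-3p was chosen for its low signal on these 14 and 42 DPI arrays, so these comparisons are not independent of the choice. Between 14 and 42 DPI the arrays overlapped for each pair and the exact permutation p lay between 0.2 and 0.9. The sham and 3 DPI arrays also overlapped for each pair.

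The sizes of these differences depended on the background treatment. With normexp background correction, the changes to miR-200a-3p, miR-200b-3p and miR-429-3p between 3 and 14 DPI were -0.29, -0.0692 and -0.0011, and between 3 and 42 DPI -0.38, -0.20 and -0.20. With a floor set to double they were -0.46, -0.0441 and -0.0347 between 3 and 14 DPI, and -0.15, 0.19 and 0.17 between 3 and 42 DPI. miR-141-3p was dim, and its dimmer probe was above background on over 0.5 of its spots on 0 of 12 arrays, that of miR-200c-3p on 6 of 12. With normexp the changes to miR-141-3p were -0.47 between 3 and 14 DPI and -0.37 between 3 and 42 DPI. In the table of processed values that the authors deposited they turned to 0.43 and 0.47. In that table the value of miR-141-3p equals the mean of the other 2 arrays of its group on replicate 3 of 3 DPI and replicate 1 of 14 DPI, and the values of miR-200a-3p and miR-200c-3p do so on replicate 1 of 14 DPI. On the deposited values limma called 4 of 5 members lower between 3 and 42 DPI, beside 373 of 681 tested miRNAs in either direction.

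**Figure D4:**
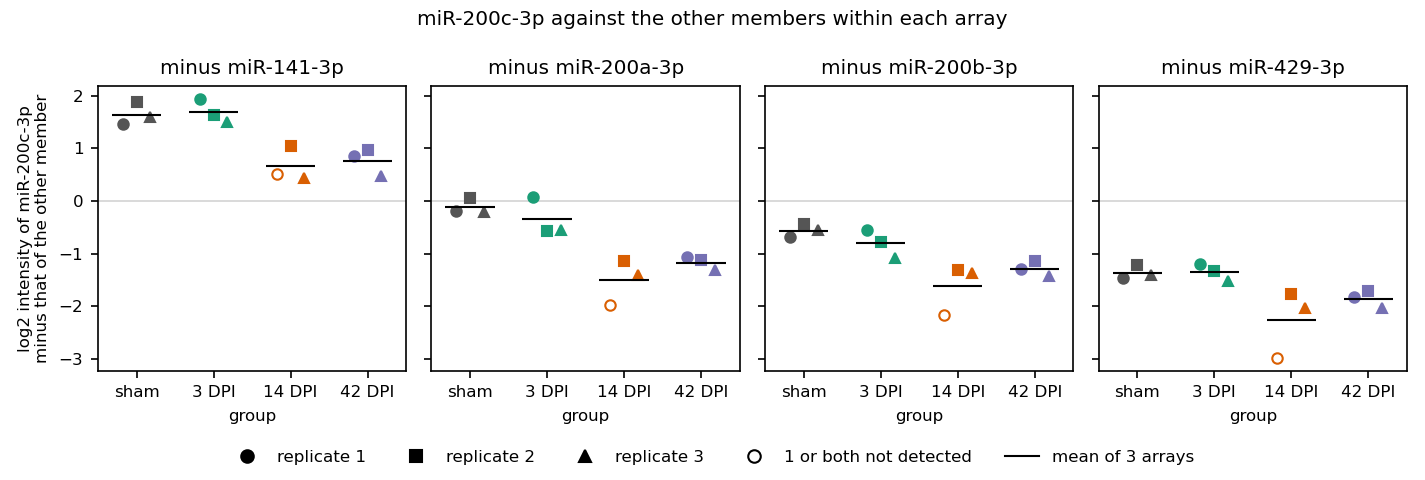
Log2 difference within each array of miR-200c-3p minus another member (vertical axis) by group, 1 point per array (open where a miRNA of the pair was not detected) with the mean of the 3 arrays as a line. All 14 and 42 DPI points lie below all sham and 3 DPI points, in the panel of miR-141-3p from means of 1.64 and 1.69 to 0.66 and 0.77.

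Each member was read by 2 probes of 15 spots each. The log2 scaled signal of the brighter probe differed between 3 and 42 DPI by -2.67 for miR-200c-3p and by -1.76 for miR-141-3p. No difference is given for their dimmer probes, which were above background on 6 and 0 of the 12 arrays. For the other members, whose probes were above background on at least 10 arrays, the differences of both probes lay between -2.20 and -1.79. These probe values were not tested.

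Across the 12 arrays the members followed each other. Pearson's r of the log2 scaled signal lay between 0.972 and 0.993 over the 10 pairs. Before scaling it lay between 0.846 and 0.991, and without replicate 1 of 14 DPI between 0.663 and 0.979, the low values being those of miR-200c-3p with miR-200a-3p and miR-141-3p. These are descriptions over arrays that share the group structure and the overall brightness. Among 351 miRNAs above the floor on at least 10 arrays, those most like miR-200c-3p were miR-183-5p and miR-429-3p (r = 0.99 each), miR-200b-3p (0.978), miR-200a-3p (0.953) and miR-3099-3p (0.931). miR-141-3p was at the floor on too many arrays to be a candidate.

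The 5p arms of the 5 hairpins all had probes, and none was detected on any of the 12 arrays, so the family was measured through its 3p arms alone. Of 10 other miRNAs known from epithelia, 6 were tested. In the contrast of 42 with 3 DPI, 2 of the 6 fell, beside the 24.1% of all tested miRNAs called lower, both of the miR-183 cluster that is known from sensory epithelia. miR-183-5p had log2 scaled signals of -1.77, -1.19 and -2.59 in sham and of -1.54, -1.49 and -3.03 on the 3 DPI arrays. It had -3.67 and -3.46 on replicates 2 and 3 of 14 DPI, was not detected on replicate 1, and had -4.31, -4.14 and -4.54 on the 42 DPI arrays. It fell by 2.31 between 3 and 42 DPI (SE 0.56, adjusted p = 0.0237 in limma), and its groups separated as those of miR-200c-3p did. miR-96-5p fell by 1.53 (SE 0.41, adjusted p = 0.0283). The fall of both was relative, as for the family: without scaling miR-183-5p lay at -0.28 and miR-96-5p turned to 0.50, and neither was called. Their cluster partner miR-182-5p, detected on 2 of 3 arrays of each group, was not tested. Its log2 scaled signal was -4.24 and -3.65 on replicates 1 and 2 of sham, and -3.90 and -3.84 on those of 3 DPI. It was at the floor on replicate 3 of both groups and on all 14 and 42 DPI arrays.

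Outside the miR-183 cluster, none of the tested epithelial miRNAs was called lower between 3 and 42 DPI. miR-194-5p, known from gut epithelium and liver, was not detected on any sham or 3 DPI array, lay at -4.30, -4.58 and -4.51 at 42 DPI, and exceeded its 3 DPI level at least 1.45-fold, a bound that takes, on each 3 DPI array, the higher of the dimmest detected signal and its own signal (fitted difference 0.60, adjusted p = 0.0237). With normexp it turned to -1.06, where the median of all 486 miRNAs was -1.32. miR-194-5p entered the tested set only through its detection on all 42 DPI arrays, the group where it was high. Between sham and 42 DPI the same bound was 0.82-fold, so no rise from sham is shown. Nothing is read from its call or from the size of its difference. Its partner miR-192-5p (0.56, adjusted p = 0.144 in limma) and miR-31-5p (0.38, adjusted p = 0.173) were not called. miR-192-5p, too, entered the tested set only through 42 DPI, so nothing is read from its lack of a fall. miR-203-3p of the skin was set to the floor on all 12 arrays, though all 3 arrays of 42 DPI detected it, so no change could show. Of the 10, miR-205-5p and miR-215-5p were detected on no array, and miR-375-3p on 1 array of 14 DPI and 2 of 42 DPI.

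The choroid plexus and ciliated ependyma are the epithelia inside the brain, and 5 of their 7 listed miRNAs were tested. None was called between 3 and 42 DPI in limma. miR-204-5p, abundant in the choroid plexus, lay 0.66 higher (adjusted p = 0.0581 in limma). miR-34b-5p and miR-34c-5p of ciliated cells lay 0.53 and 0.48 higher (adjusted p = 0.173 and 0.216). miR-211-5p, detected only at 42 DPI and at the floor there, lay at -0.04. miR-449a-5p was set to the floor throughout, though 2 arrays of 14 DPI and 3 of 42 DPI detected it, so no change could show. The summed scaled signal of the 7 ranged from 1.24 to 1.75 in sham, from 1.29 to 2.06 at 3 DPI, from 1.33 to 2.37 at 14 DPI and from 2.30 to 2.53 at 42 DPI.

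**Figure D5:**
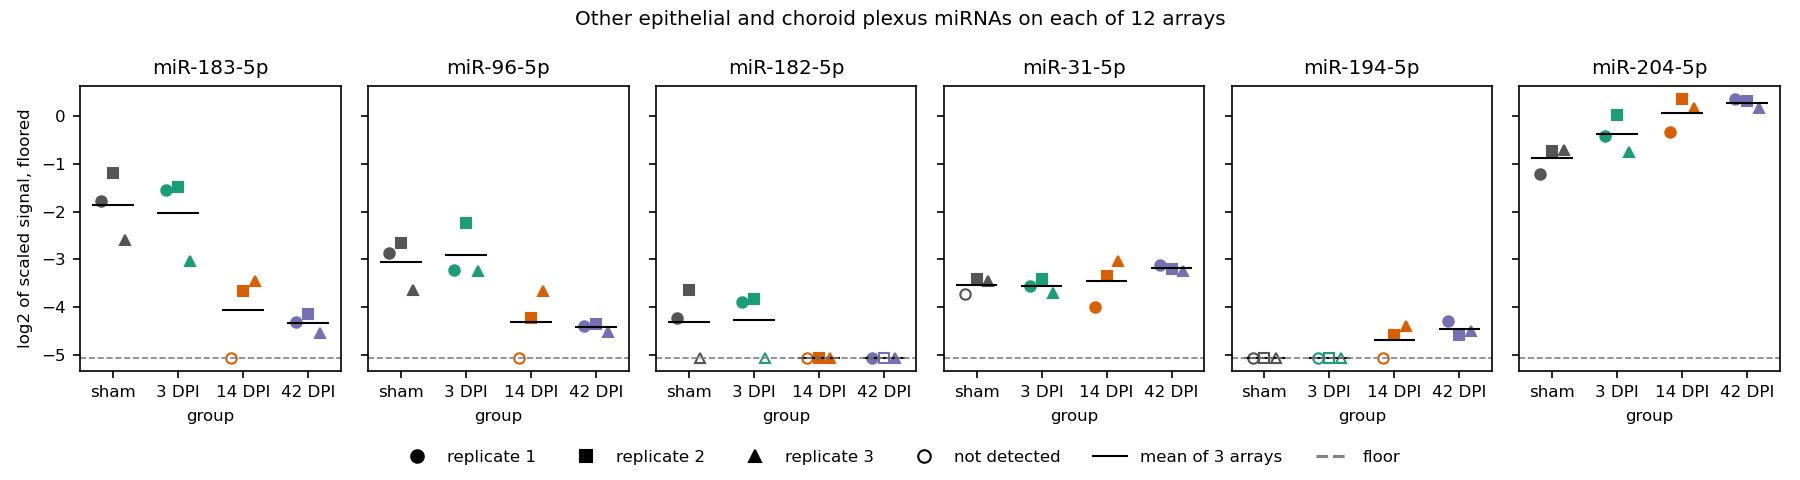
Log2 scaled signal, set to the floor where lower, of miR-183-5p, miR-96-5p, miR-182-5p, miR-31-5p, miR-194-5p and miR-204-5p in the 4 groups, 1 point per array (open where not detected) with the mean of the 3 arrays as a line. All 14 and 42 DPI arrays of miR-183-5p and miR-96-5p lie below their sham and 3 DPI arrays, and miR-194-5p leaves the floor only at 14 and 42 DPI.

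Markers of other cells moved across the same groups. Between 3 and 42 DPI, 3 of the 4 tested myeloid miRNAs were called higher, as were 2 of 3 oligodendrocyte miRNAs, beside 14.2% of all tested miRNAs. miR-21a-5p lay 0.87 higher on the log2 scale. miR-142a-3p was detected on 0 and miR-146a-5p on 1 of the 3 arrays of 3 DPI, so that no size is given for them. Both entered the tested set only through 42 DPI, the group where they were high, so nothing is read from their calls. miR-223-3p, detected on every array of both groups, lay at -0.11 (adjusted p = 0.542 in limma). The summed scaled signal of the 6 listed myeloid miRNAs ranged from 0.61 to 0.96 at 3 DPI and from 1.34 to 1.50 at 42 DPI, with miR-142a-5p detected on no array. That of the 3 oligodendrocyte miRNAs ranged from 2.12 to 3.63 and from 4.12 to 4.43. That of the 7 neuronal miRNAs ranged from 13.3 to 21.5 and from 20.6 to 25.2, with 1 called higher and 1 lower. That of the 5 members of the miR-200 family ranged from 0.94 to 2.18 and from 0.35 to 0.40. The 1 tested erythrocyte miRNA, miR-486a-5p, was called lower (-0.87, adjusted p = 0.0173 in limma), as were 24.1% of all tested miRNAs. miR-486a-5p was detected on 0 of 3 sham, 2 of 3 3 DPI and 3 of 3 42 DPI arrays, and its 42 DPI signal lay at or near the floor. miR-451a and miR-144-3p were not tested. Of 4 tested miRNAs of endothelium and smooth muscle, 1 was called higher, miR-143-3p. It entered the tested set only through 14 and 42 DPI, where it was higher, so nothing is read from its call. miR-126a-5p and miR-145a-5p were set to the floor on every array, so no change could show. Whether these marker signals reflect a shift in cell sources, and whether such a shift has a part in the fall of the family, was not tested.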

How the data were processed

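The 12 single-color Agilent arrays were grouped by their labels. Spot intensity on a linear scale, corrected for background by Agilent Feature Extraction 10.7.1.1 and left unscaled across arrays, is what the authors deposited for each array. A second deposited table gives log2 values whose scaling and centering are not stated; its columns all have a median of -3.32, brighter is higher, and it was used as an alternative. In it, values within 1e-08 of the mean of the other 2 arrays of their group were counted as equal to it. The labels describe labelling of amplified cRNA and the methods direct labelling of RNA, and the files do not settle which was done.

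Control and outlier spots were dropped, the spots of each probe averaged and the probes of each miRNA summed. Each array was then divided by the 75th percentile of the 230 miRNAs seen on every array, with a floor at -5.06 on the log2 scale. Detection required more than 0.5 of a probe's spots to be well above background. For the 486 miRNAs that every array of some group detected, 1 two-sided limma fit (limma 3.58.1, R 4.3.3) covered the 12 arrays, had no covariates, and was adjusted by Benjamini-Hochberg over all of them. Differences within arrays were taken before the floor and compared by exact permutation. Python 3.11.15, pandas 2.3.3, NumPy 2.4.6 and SciPy 1.17.1 were used. The fit was tested on simulated data. Arrays have no read depth, so their number, 3 a group, limits the precision.

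Members, lists and tests were chosen with earlier results of these data known. Named are the members, their 5p arms, the tested miRNAs of the epithelial, choroid plexus and ciliated lists, others with the same seed, and the 5 miRNAs most correlated with miR-200c-3p; the cell markers named come from the marker lists. Of the 1881 miRNAs, 1608 had a RefSeq sequence. Same-numbered arrays of sham and 14 DPI deviated together (r across miRNAs of 0.834, 0.436 and 0.746), a pairing that rests on these values alone; for the other group pairs at least 1 number had a negative r. Alternatives changed the background correction, scaling, floor, filter, probe summary, test, slide block, replicate block and arrays included.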

Additional observations from a re-analysis of the deposited data

Results flagged for a closer look

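The markers of other cells were left out of this count. Of the other miRNAs named, 9 passed the test for a difference between time points after injury, all between 3 and 42 DPI. It was -2.66 on the log2 scale for miR-200c-3p, -2.18 for miR-200b-3p, -2.15 for miR-429-3p, -1.83 for miR-200a-3p and -1.29 for miR-141-3p. Outside the family it was -2.31 for miR-183-5p, -1.53 for miR-96-5p, -0.74 for miR-3099-3p and 0.60 for miR-194-5p. Each stands here because its change from sham at 42 DPI differed from that at 3 DPI, which is the same contrast since both share the sham arrays. miR-200c-3p was chosen for its low signal at 14 and 42 DPI. The other members followed it over the same arrays, and miR-183-5p and miR-3099-3p are among the miRNAs most correlated with it. These calls are thus not independent of the choice. miR-3099-3p turned to 1.29 without scaling (adjusted p = 0.0115 in limma) and to 0.11 with the 75th percentile taken over all miRNAs (adjusted p = 0.812). miR-194-5p entered the tested set only through 42 DPI, the group where it was high, so nothing is read from its call.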

How the results depend on the processing

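All values here are log2 differences unless counts are named, and the cause of a change was not tested unless stated. Without scaling, the change against sham at 42 DPI turned to 1.16 for miR-200a-3p, 0.82 for miR-200b-3p, 0.10 for miR-200c-3p, 0.94 for miR-141-3p and 0.59 for miR-429-3p, that of 42 minus 14 DPI to 0.95, 0.95, 0.78, 0.50 and 0.88, and that of 42 minus 3 DPI to 0.19 for miR-200a-3p and 0.29 for miR-141-3p. miR-200c-3p then stood at 0.74 at 3 DPI and -0.68 at 14 DPI against sham, and at -0.64 for 42 minus 3 DPI. With the 75th percentile over all miRNAs, 42 minus 14 DPI turned to 0.34, 0.35, 0.0567 and 0.27 for miR-200a-3p, miR-200b-3p, miR-200c-3p and miR-429-3p, and miR-200c-3p at 42 DPI against sham stood at -1.94. With quantile normalization, 42 minus 14 DPI turned to 0.19, 0.19 and 0.15 for miR-200a-3p, miR-200b-3p and miR-429-3p. In the deposited table, with or without its values equal to a mean, it turned to 0.66 for miR-200b-3p and 0.14 for miR-429-3p.

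For miR-200c-3p, normexp gave -1.59 for 14 DPI against sham, -1.36 for 14 minus 3 DPI and -0.72 for 42 minus 14 DPI, where the median of all 486 miRNAs lay at -0.96, -0.56 and -0.71, so that miR-200c-3p lay at -0.63, -0.80 and -0.0077 relative to it. All 3 were called. The deposited table gave -1.72 for 14 minus 3 DPI, also called. A floor set to double gave -2.04 at 42 DPI against sham and a floor of 0.5 times gave 0.0286 for 42 minus 14 DPI. With no filter on detection, 42 minus 3 DPI was -2.66 (adjusted p = 0.0994). Within 1 slide, a comparison added after seeing the data, it was -2.37 (adjusted p = 0.0552). Slide as a block gave -1.54 and -1.84 against sham at 14 and 42 DPI. Scanner totals turned 42 minus 14 DPI of miR-141-3p to 0.02. Its scanner total was 17.5 times the sum of its probe totals on replicate 2 of 42 DPI but equal to it on replicate 1. The cause is not known, and nothing is read from the scanner totals of miR-141-3p.

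The change in miR-200c-3p minus miR-141-3p was, for 14 DPI against sham, 42 DPI against sham, 14 minus 3 and 42 minus 3 DPI in that order, -0.27, -0.17, -0.47 and -0.37 with normexp, -1.52, -1.54, -1.51 and -1.53 with double the floor, -2.47, -1.78, -2.37 and -1.68 with scanner totals (0.69 for 42 minus 14 DPI), and 0.0262, 0.0667, 0.43 and 0.47 in the deposited table (-0.41 for 3 DPI against sham). With the floor of the fit, added after seeing the data, it was -1.32 at 42 DPI against sham and -1.37 for 42 minus 3 DPI. Nothing is read from the values with scanner totals, for the reason given above. For miR-200c-3p minus miR-200b-3p, the deposited table turned 14 DPI against sham to 0.32 and 14 minus 3 DPI to 0.62, and double the floor turned 42 minus 3 DPI to 0.19. For miR-200c-3p minus miR-429-3p, the deposited table gave 0.12 and 0.0895 for 14 DPI against sham and against 3 DPI, and double the floor 0.18 and 0.17 for 42 DPI against the same groups.

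Leaving out 1 array at a time, miR-200c-3p ranged from -2.84 to -2.04 for 14 minus 3 DPI and from -3.15 to -2.37 for 42 minus 3 DPI, while 42 minus 14 DPI ranged from -0.73 to 0.26 for miR-200a-3p, from -0.68 to 0.19 for miR-200b-3p and from -0.67 to 0.12 for miR-429-3p. Counts of miRNAs called moved too. Against the 18 called for 14 DPI against sham, it was 370 with normexp, 315 without scaling, 239 in the deposited table, 1 with no filter, 0 with slide as a block and 1 to 162 leaving out an array, 162 without replicate 1 of 14 DPI. Against 166 for 42 DPI against sham it was 429, 405, 353, 18, 0 and 46 to 249. Against 186 for 42 minus 3 DPI it was 414, 302, 373, 0, 94 and 0 to 255. For 14 minus 3 DPI, 3 were called, with 0 under the methods' t-test, 183 in the deposited table and 3 to 131 leaving out an array. For 42 minus 14 DPI, 0 were called by limma and by the methods' t-test after adjustment, with 294, 164 and 42 under normexp, no scaling and the deposited table.

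With the replicate block, 42 minus 3 DPI of miR-200c-3p kept its value of -2.66 (adjusted p = 0.0329) and 5 of 5 members were called. For 14 DPI against sham, where same-numbered arrays deviated together, 0 members were called with the block against 1 without, and 4 miRNAs against 18. That pairing rests on these values alone. For 42 DPI against sham 4 members were called against 5, and 141 miRNAs against 166.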
